A study of Mus musculus with 6 samples.

Results

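Cytotoxic T cells kill through granules and through surface ligands, and the genes described here are the parts of that machinery other than the granzymes. They comprise 8 genes of the 43629 in the deposited count table, chosen by name as perforin, granule and death ligand genes: Prf1, Nkg7, Srgn, Ctsw, Lamp1, Fasl, Tnfsf10 and Ifng. All 8 had 1 row each in the table and all 8 passed the filter on low counts, so that each was among the 11183 genes tested. They were measured in tumour-infiltrating T cells from C57BL/6 mice carrying subcutaneous B16-OVA tumours, a melanoma line that expresses ovalbumin, harvested on day 14. Cells were sorted into an L-Pha low and an L-Pha high population, with 3 libraries of each. L-Pha is a plant lectin that binds branched N-glycans. The design text describes the cells as positive for CD8 and the T cell receptor, whereas the extraction protocol names TCRB and CD3, and it states that tumours were pooled. Whether the 3 libraries of a population came from separate pools is not given, so a p-value here reflects only how far these libraries spread, and that spread may be technical.

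In granule killing, perforin opens the membrane of the target cell and granzymes pass through to start cell death. The granules are secretory lysosomes, in which a proteoglycan core packs the enzymes and lysosomal membrane proteins line the wall. In ligand killing, Fas ligand and TRAIL on the T cell engage death receptors on the target. Interferon-gamma is secreted alongside and acts on tumour and immune cells.

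Library totals were between 2610729 and 3521117 counts, and levels are given as CPM, counts relative to the library's size, after TMM scaling, a correction for library composition. A list of 20 T cell identity genes summed to 462 to 1333 CPM in L-Pha low and to 624 to 1081 CPM in L-Pha high, with L-Pha low 3 lowest and L-Pha high 3 next. Melanoma markers were abundant in every library, with a summed level of 10850 to 17460 CPM over 12 genes in L-Pha low and 12060 to 18360 CPM in L-Pha high. The 2 libraries with the least T cell RNA held the most, L-Pha low 3 with 17460 CPM and L-Pha high 3 with 18360 CPM, against 10850 to 15010 CPM in the others. L-Pha low 3 also stood apart in B cell markers, at 62.6 CPM over 7 genes against 8.09 to 28 CPM elsewhere. Macrophage markers, of which 15 of 15 had counts, summed to 290 to 341 CPM and 297 to 443 CPM. Of the 12 tested, 10 were higher in L-Pha high in point value, and in 3 of these (Ccr2, C1qa and Itgam) the groups did not overlap. Over all 11183 tested genes 5509 were higher in point value, and 473 were higher without overlap. Of the CD4 T cell markers, Cd4 had 0 to 4 counts per library, Foxp3 0 to 7, Cd40lg 0 to 4 and Il4 and Il17a 0. Ctla4, of the same list, had 23 to 234 counts, and Cd8a had 153 to 625. Natural killer cells share most of the killing genes with T cells, but their defining receptor gene Ncr1 had 0 to 2 counts and Klrb1c 0 to 5 counts per library, where a count of 0 allows up to 3. The 11 genes of the natural killer list summed to 42.5 to 74.0 CPM in L-Pha low and 55.3 to 59.4 CPM in L-Pha high. Of the 5 tested, Gzma was lower and 4 were higher in point value, and 0 passed the threshold over all genes. The lectin receptor gene Klri2 stood at 3.45 ± 0.785 and 7.53 ± 0.198 CPM in L-Pha low and L-Pha high (mean ± SD over 3 libraries each). Fcer1g, an adaptor gene that myeloid cells also express, stood at 6.99 ± 1.63 and 12.8 ± 3.09 CPM. Neither overlapped between the groups, with unadjusted p-values of 0.0199 and 0.0319 and adjusted p = 1 by edgeR. In the natural killer list 2 of the 5 tested genes were higher and 1 lower without overlap, against 473 and 467 of 11183 over all genes. Klre1, another lectin receptor gene, ran from 10.8 to 28.5 CPM in L-Pha low and from 18.1 to 29.8 CPM in L-Pha high. The part of these other cells in the levels of the killing genes was not tested.

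None of the 8 genes differed between L-Pha high and L-Pha low beyond the spread of the libraries in the test across all genes. By edgeR's quasi-likelihood test with Benjamini-Hochberg adjustment 0 of 8 passed an adjusted p of 0.05, and 0 of 8 had an unadjusted p under 0.05, against 0.00894% and 3.78% of all tested genes. The groups overlapped in CPM for all 8, whereas they did not overlap for 8.41% of all genes. The point values went both ways, 4 higher and 4 lower in L-Pha high, and their median log2 fold change was 0.019 against -0.0060 over all genes. Scaling by library totals alone, which moves the median of all genes to 0.10, turns Tnfsf10 and Lamp1 from lower to higher. The largest differences were in Prf1, higher, and Ctsw, lower.

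**Figure D1:**
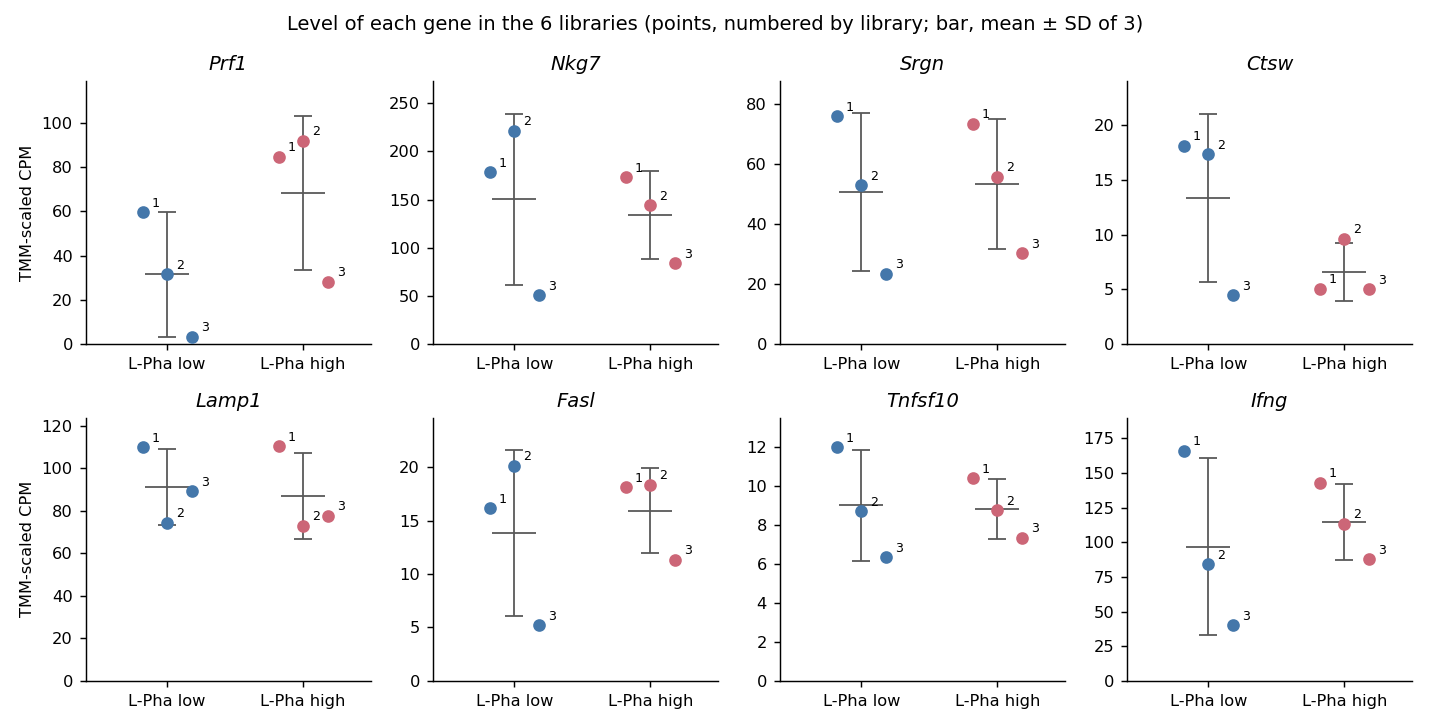
TMM-scaled CPM of each gene (y axis, from 0) in the 3 L-Pha low (blue) and 3 L-Pha high (red) libraries, numbered as in the labels, with the mean ± SD of each group in grey. L-Pha low 3 is the lowest library for 7 of the 8 genes, and the groups overlap in every panel.

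Prf1 encodes perforin, the pore-forming protein (ENSMUSG00000037202, GRCm38 chromosome 10, 61297836 to 61304263, plus strand). It stood at 59.6, 31.6 and 3.36 CPM in L-Pha low 1, 2 and 3, against 84.7, 91.9 and 28.3 CPM in L-Pha high 1, 2 and 3. L-Pha high 1 and 2 were above every L-Pha low library, while L-Pha high 3 lay below L-Pha low 1 and 2, so the groups overlapped. The means were 31.5 ± 28.1 CPM and 68.3 ± 34.8 CPM (SD, n = 3 each), a 2.16-fold difference (log2 fold change 1.11, SE 0.751, 95% interval -0.59 to 2.81, edgeR adjusted p = 1). L-Pha low 3 held 9 Prf1 counts against 184 and 91 in the other L-Pha low libraries, and leaving it out gave a log2 fold change of 0.59. Leaving out L-Pha low 1 gave 1.96. Perforin had the widest range of the 8 genes, with a 27.4-fold distance between the highest and the lowest library, against 1.51-fold to 4.33-fold for the others.

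Ctsw encodes cathepsin W, a papain-family protease found in cytotoxic lymphocytes (ENSMUSG00000024910, chromosome 19, 5465240 to 5468498, minus strand). Its levels were 18.1, 17.4 and 4.47 CPM in L-Pha low 1, 2 and 3, against 5.06, 9.64 and 5.00 CPM in L-Pha high 1, 2 and 3. L-Pha low 1 and 2 lay above all L-Pha high libraries, and L-Pha low 3 below all of them. The log2 fold change was -1.02 (SE 0.490, 95% interval -2.07 to 0.026, edgeR adjusted p = 1). It rested on 12 to 56 counts per library. Leaving out L-Pha low 3 gave a log2 fold change of -1.43, with an unadjusted p of 0.002 and an edgeR adjusted p of 0.206.

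The other granule genes lay closer together. Nkg7, a membrane protein of cytotoxic granules needed for their release (ENSMUSG00000004612, chromosome 7, 43437073 to 43438246), had 178, 221 and 51.1 CPM in L-Pha low, against 173, 144 and 84.3 CPM in L-Pha high. The values of L-Pha high fell within the range of L-Pha low, with a log2 fold change of -0.17 (SE 0.413, 95% interval -1.05 to 0.72). Its sign changed under several alternatives, and without L-Pha low 2 it was 0.22. Srgn encodes serglycin, the proteoglycan that packs perforin and granzymes (ENSMUSG00000020077, chromosome 10, 62493833 to 62527451), and ran from 23.5 to 75.7 CPM in L-Pha low and from 30.3 to 73.3 CPM in L-Pha high. Its log2 fold change was 0.068 (SE 0.387, 95% interval -0.76 to 0.90), and -0.27 without L-Pha low 3. Lamp1 encodes the lysosomal membrane protein CD107a, whose arrival at the surface is used to measure degranulation (ENSMUSG00000031447, chromosome 8, 13159135 to 13175338). It ran from 74.3 to 110.0 CPM in L-Pha low and from 72.9 to 110.3 CPM in L-Pha high (log2 fold change -0.068, SE 0.252, 95% interval -0.61 to 0.47). Its groups had nearly the same range, and its interval was the narrowest of the 8.

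Of the death ligands, Fasl, which encodes Fas ligand (ENSMUSG00000000817, chromosome 1, 161780689 to 161788495), had 16.2, 20.1 and 5.22 CPM in L-Pha low, against 18.1, 18.4 and 11.3 CPM in L-Pha high. L-Pha low 3 was low, and the other libraries of both groups lay close together (log2 fold change 0.20, SE 0.420, 95% interval -0.70 to 1.1, and -0.18 without L-Pha low 3). Tnfsf10, which encodes TRAIL (ENSMUSG00000039304, chromosome 3, 27317028 to 27342427), ran from 6.34 to 12 CPM in L-Pha low and from 7.33 to 10.4 CPM in L-Pha high. With 17 to 39 counts per library its log2 fold change of -0.030 had a 95% interval from -0.84 to 0.78, so differences within that interval cannot be told apart here.

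Ifng, which encodes the secreted cytokine interferon-gamma (ENSMUSG00000055170, chromosome 10, 118441047 to 118445892), had 166, 84.4 and 40.3 CPM in L-Pha low, against 143, 113 and 88.0 CPM in L-Pha high. The L-Pha high libraries fell inside the range of L-Pha low. The log2 fold change was 0.24 (SE 0.386, 95% interval -0.59 to 1.07), and -0.12 without L-Pha low 3.

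The libraries differed in how much T cell RNA they held, and most of the killing genes followed it. L-Pha low 3 was the lowest library for 7 of the 8 genes, Lamp1 being the exception, and both libraries numbered 3 were the lowest pair for 6, all but Ifng and Lamp1. In these bulk samples fewer T cells and less RNA per T cell cannot be told apart. In a fit across all genes with the mean log2 CPM of the T cell identity list as a covariate, Prf1 had a slope of 2.45 log2 units per log2 unit of that mean. The slopes were 1.33 for Nkg7, 1.28 for Ctsw, 1.17 for Fasl, 1.08 for Srgn and 1.02 for Ifng. For Tnfsf10 the slope was 0.477 and for Lamp1, which most cell types express, 0.0589. Slopes are a description over 6 libraries.

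**Figure D2:**
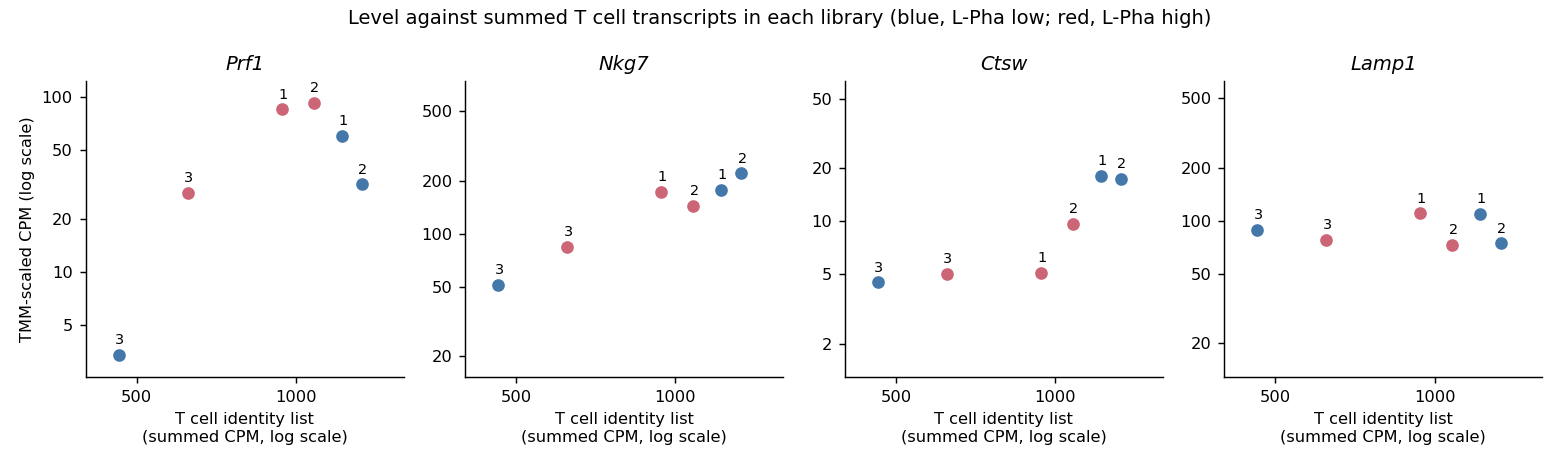
TMM-scaled CPM of Prf1, Nkg7, Ctsw and Lamp1 (y axis, log scale) against the summed CPM of the T cell identity list (x axis, log scale), 1 numbered point per library, L-Pha low in blue and L-Pha high in red. Lamp1 stays between 72.9 and 110.3 CPM while the other 3 genes are lowest in L-Pha low 3, and the L-Pha high libraries carry more Prf1 than the L-Pha low libraries nearest to them on the x axis.

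With that covariate Prf1 was called higher in L-Pha high and no other of the 8 genes was called. The identity list itself leaned lower in L-Pha high. Of its 19 tested genes 13 were lower and 6 higher in point value (median log2 fold change -0.22), against 5674 and 5509 of 11183 over all genes. How far this lean moves the covariate estimates was not tested. The log2 fold change of Prf1 was 1.76 (3.39-fold, SE 0.279, 95% interval 1.18 to 2.34, edgeR adjusted p = 0.00339), in a fit that called 0.179% of all genes higher. The call ended without L-Pha low 3 (log2 fold change 1.6, unadjusted p = 0.00101, edgeR adjusted p = 0.835, with 0 genes called in all) and held without any other single library (adjusted p from 0.000211 to 0.0247). Over the 21 alternatives tried for Prf1 the log2 fold change stayed positive, between 0.59 and 2.19, and the adjusted p ran from 0.000211 to 1. The covariate values were 4.33 for L-Pha low 3 and 4.76 for L-Pha high 3 against 5.39 to 5.80 elsewhere. Ctsw had a log2 fold change of -0.76 in this fit (95% interval -1.53 to 0.017) and Ifng one of 0.46 (-0.064 to 0.98), with edgeR adjusted p-values of 0.79 and 0.854.

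**Figure D3:**
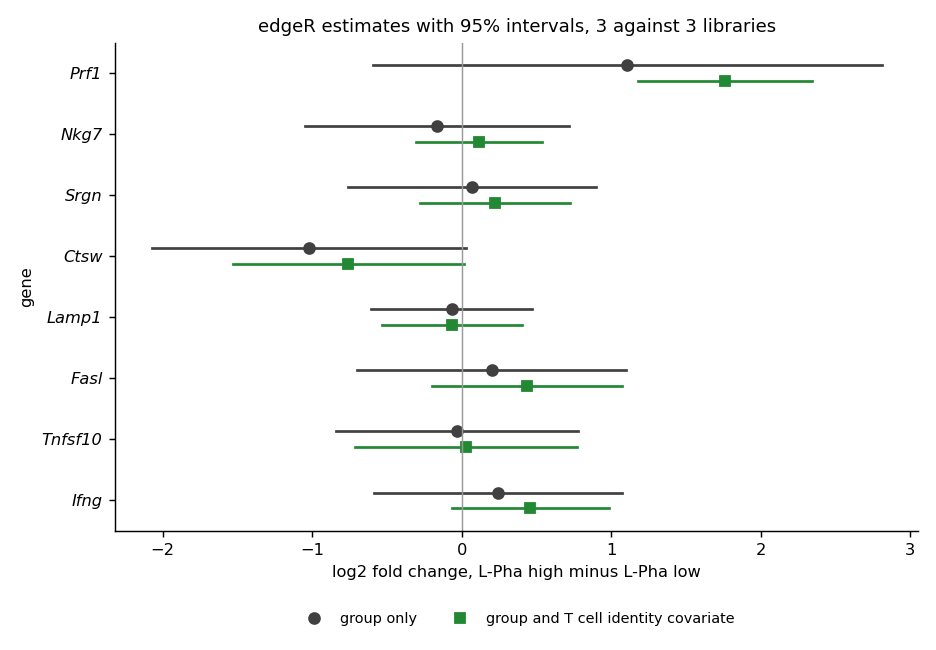
log2 fold change of each gene, L-Pha high minus L-Pha low (x axis), with its 95% interval, from edgeR with group as the only term (grey circles) and with the T cell identity covariate added (green squares). Only the covariate estimate of Prf1, 1.18 to 2.34, has an interval that leaves out 0.

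The same question was put within each library, by setting each gene against Cd8a, the CD8 alpha chain, and Cd3e, a chain of the T cell receptor complex. Such a ratio does not depend on scaling between libraries. Cd8a itself ran from 57.1 to 217 CPM in L-Pha low and from 91.6 to 162 CPM in L-Pha high (log2 fold change -0.13, SE 0.376), and Cd3e from 9.32 to 37.9 and from 11.7 to 25.3 CPM (-0.34, SE 0.428). Neither differed beyond the spread, and Cd3e had 25 to 109 counts per library, which limits the precision of its ratios. With 3 libraries against 3 the smallest two-sided exact permutation p is 0.1, so no ratio could pass 0.05.

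Per 100 Cd8a counts there were 44.9, 14.6 and 5.88 Prf1 counts in L-Pha low 1, 2 and 3, against 71.0, 56.9 and 30.9 in L-Pha high 1, 2 and 3. The 95% Clopper-Pearson interval, which covers counting error only, was 2.64 to 11.5 in L-Pha low 3 and 23.9 to 39.6 in L-Pha high 3. L-Pha low 1 lay above L-Pha high 3, so the groups overlapped. The mean difference was 1.65 on the log2 scale (3.14-fold, exact permutation p = 0.2, two-sided). It was 0.97 without L-Pha low 3. The overlap lay only between L-Pha low 1 and L-Pha high 3, so leaving out either of them ended it by construction.

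Per 100 Cd3e counts the Prf1 values were 233, 83.5 and 36.0 in L-Pha low, against 335, 455 and 243 in L-Pha high. Every L-Pha high library was above every L-Pha low library, although L-Pha low 1 (178 to 307) and L-Pha high 3 (162 to 371) had overlapping counting intervals. The mean difference was 1.88 on the log2 scale (3.69-fold, exact permutation p = 0.1, two-sided), and 1.25 without L-Pha low 3. Relative to the whole T cell identity list in place of Cd3e, the groups of Prf1 overlapped.

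Cathepsin W went the other way against Cd8a. There were 13.7, 8 and 7.84 Ctsw counts per 100 Cd8a counts in L-Pha low 1, 2 and 3, against 4.24, 5.97 and 5.45 in L-Pha high. All L-Pha high libraries were below all L-Pha low libraries, by -0.87 on the log2 scale (1.83-fold lower, exact permutation p = 0.1, two-sided). Against Cd3e the groups of Ctsw overlapped, with a difference of -0.63 (exact permutation p = 0.2, two-sided), and the T cell identity list as reference again left them apart.

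Fas ligand was modestly higher against Cd3e, at 63.3, 53.2 and 56.0 per 100 Cd3e counts in L-Pha low, against 71.6, 91.0 and 97.1 in L-Pha high. The groups did not overlap, with a difference of 0.57 on the log2 scale (1.49-fold, exact permutation p = 0.1, two-sided). Counting intervals were wide, from 26.9 to 112 in L-Pha low 3 and from 58.8 to 160 in L-Pha high 3. Against Cd8a the groups of Fasl overlapped, with a difference of 0.34 (exact permutation p = 0.2, two-sided). With the T cell identity list as reference they were apart, with a difference of 0.45.

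Of the 8 genes, 1 (Ctsw) did not overlap against Cd8a and 2 (Prf1 and Fasl) against Cd3e. Among all tested genes 0.948% were lower and 0.671% higher without overlap against Cd8a. Against Cd3e 1.11% were higher and 0.367% lower without overlap. These shares cannot serve as a chance level for genes that follow T cell RNA. Cd8a and Cd3e themselves varied 3.81-fold and 4.06-fold between libraries, which spreads the ratios of genes that do not follow them. In CPM, without a reference gene, 8.41% of all genes did not overlap. The remaining differences against Cd8a and Cd3e were -0.013 and 0.22 for Nkg7, 0.097 and 0.33 for Srgn, -0.11 and 0.13 for Lamp1, -0.034 and 0.20 for Tnfsf10, and 0.41 and 0.65 for Ifng. All of these overlapped, and their exact permutation p-values ran from 0.2 to 1.

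**Figure D4:**
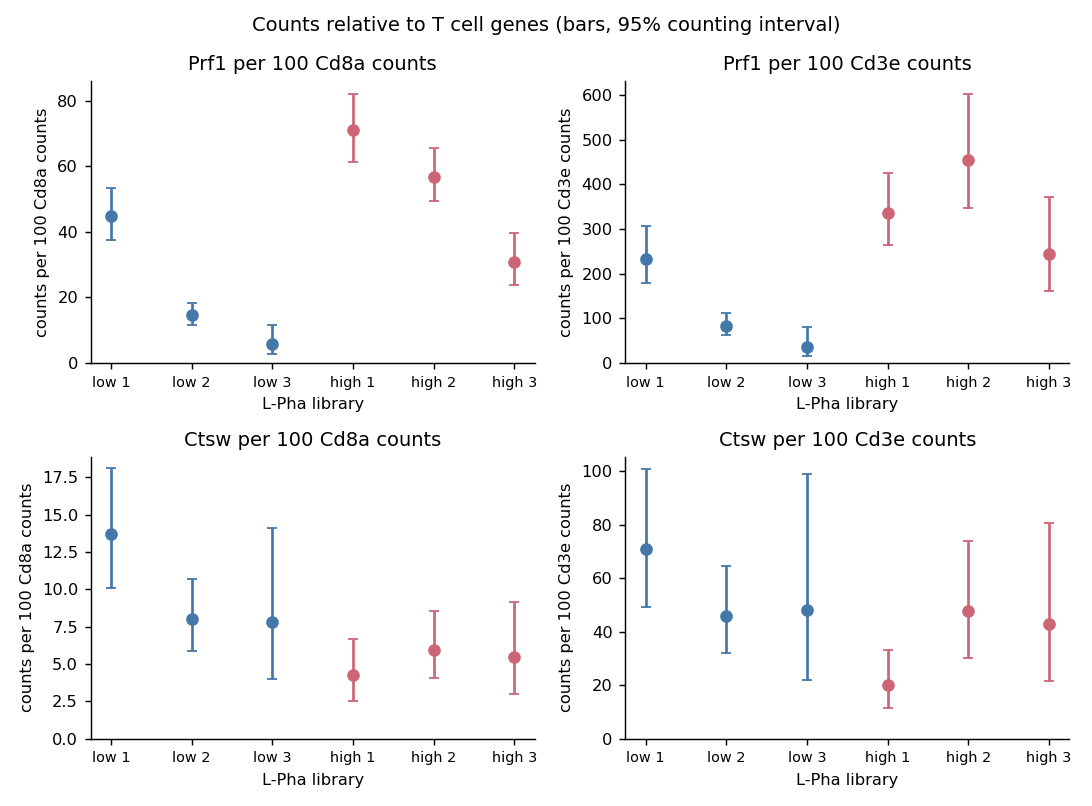
Counts of Prf1 (top) and Ctsw (bottom) per 100 counts of Cd8a (left) or Cd3e (right) in each library (y axis, from 0), with 95% counting intervals, L-Pha low in blue and L-Pha high in red. Prf1 per 100 Cd3e counts is 36.0 to 233 in L-Pha low and 243 to 455 in L-Pha high, and Ctsw per 100 Cd8a counts is 7.84 to 13.7 in L-Pha low and 4.24 to 5.97 in L-Pha high.

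Set against each other, perforin and cathepsin W gave the largest difference of the 28 pairs of the 8 genes, a pair singled out after its values were seen. There were 3.29, 1.82 and 0.75 Prf1 counts per Ctsw count in L-Pha low 1, 2 and 3, against 16.7, 9.53 and 5.67 in L-Pha high. The groups did not overlap, with a log2 difference of 2.52 (exact permutation p = 0.1, two-sided, 0.4 adjusted over the 28 pairs by Benjamini-Hochberg). This was not particular to the pair. Prf1 against Nkg7 and Srgn, and Ctsw against Nkg7, Fasl, Srgn and Ifng, also did not overlap (each exact permutation p = 0.1, two-sided).

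The stretches before the start sites of Prf1 and Lamp1 are shown because these genes had the steepest and the flattest relation to T cell transcripts. They are the 250 bases before the RefSeq start (GRCm38.p6, plus strand, 5′ to 3′), at chr10:61297586-61297835 for Prf1 and chr8:13158911-13159160 for Lamp1. Capitals mark 4 motifs of 6 letters on either strand: AGGTGT (the core bound by T-box factors such as T-bet and Eomes), ACCACA (RUNX factors), GGAAGT (ETS factors) and CACGTG (the E-box, its own reverse complement).
Prf1: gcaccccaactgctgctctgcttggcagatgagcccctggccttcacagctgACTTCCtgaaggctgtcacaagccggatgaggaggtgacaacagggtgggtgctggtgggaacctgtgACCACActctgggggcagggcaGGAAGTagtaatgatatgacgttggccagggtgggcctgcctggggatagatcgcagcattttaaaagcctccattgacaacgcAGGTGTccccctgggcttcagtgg
Lamp1: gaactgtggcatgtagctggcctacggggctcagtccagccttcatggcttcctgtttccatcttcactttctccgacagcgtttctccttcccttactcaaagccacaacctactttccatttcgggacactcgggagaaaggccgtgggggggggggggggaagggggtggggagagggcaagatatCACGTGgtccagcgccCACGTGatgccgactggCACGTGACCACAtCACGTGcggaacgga
Prf1 held 1 T-box, 1 RUNX and 2 ETS matches and 0 E-boxes. Lamp1 held 4 E-boxes and 1 RUNX match, which adjoins an E-box, and 0 of the other two. Nkg7 was the other gene with a T-box match (1, with 1 RUNX match), and Fasl held 1 ETS match. Srgn, with 2 start sites, held 1 ETS match before one and 1 RUNX match before the other, and Tnfsf10 and Ifng held 0 of the 4 motifs. Among 32851 promoter windows of this length 11.8% held the T-box letters, 14.0% the RUNX letters, 19.7% the ETS letters and 6.02% the E-box. A match is a description of the letters, and RefSeq windows were matched for 7 of the 8 genes, all but Ctsw.

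The granzymes, which perforin delivers, were spread more widely. Point values were higher for 6 and lower for 2 of 8 tested granzyme genes, and their median log2 fold change was 1.70. By edgeR 0 passed over all genes. At an unadjusted p under 0.05 by edgeR 5 were higher and 1 lower, against 203 and 220 of 11183 over all genes. Gzmd stood at 27.4 ± 15.3 and 91.8 ± 31.1 CPM in L-Pha low and L-Pha high (SD, n = 3 each), while Gzma stood at 26.9 ± 13.6 and 5.27 ± 1.39 CPM. Gzmc to Gzmg are similar in sequence and reads that map to several places were counted at each of them, so their separate values are uncertain. The number of such reads was not measured.

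Granule proteins and the release machinery stayed near the background. Of 22 tested granule and lysosome genes 12 were higher and 10 lower in point value (median log2 fold change 0.088), with 0 at an unadjusted p under 0.05. Cst7, which encodes cystatin F, an inhibitor of granule cathepsins, had a log2 fold change of 0.59 (SE 0.320), and Serpinb9, which protects the killer cell from granzyme B, one of 0.50 (SE 0.349). M6pr, a receptor gene for the transport of enzymes to lysosomes, had -0.25 (SE 0.248), and Cd63, a granule membrane gene that melanoma cells also express, 0.34 (SE 0.372). Library totals alone moved the median of this list to 0.19. Dropping L-Pha low 1 gave a median of 0.027, dropping L-Pha low 3 gave 0.0074 and dropping L-Pha high 1 gave 0.015. It turned negative when L-Pha high 2 (-0.0029) or L-Pha high 3 (-0.096) was dropped. Of 23 tested genes of granule transport and fusion 13 were higher and 10 lower (median 0.095, and -0.017 without L-Pha high 2), again with 0 at an unadjusted p under 0.05. The syntaxin gene Stx11 had 0.80 (SE 0.417), its partner Stxbp2 0.51 (SE 0.383) and the granule sizing gene Lyst 0.45 (SE 0.325).

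Among 17 tested genes of the death receptor pathway 9 had a higher and 8 a lower point value; the median was 0.014, with 0 past the threshold, and ran from -0.073 to 0.051 without 1 library. Lta, which encodes lymphotoxin alpha, had a log2 fold change of -1.35 (SE 0.578, unadjusted p = 0.0347, edgeR adjusted p = 1). Ltb, which encodes the partner of lymphotoxin alpha, had -0.67 (SE 0.337).

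Regulators of the effector programme were more often higher in point value, in 18 of 23 tested genes against 5509 of 11183 over all genes. Their median was 0.16, with 0 past the threshold and 2 at an unadjusted p under 0.05 by edgeR, against 3.78% of all genes. The median turned to -0.054 without L-Pha low 3, the library lowest in T cell RNA, and was 0.35 without L-Pha low 1. Those at an unadjusted p under 0.05 were Prdm1, the gene of the repressor Blimp-1, at 29.8 ± 9.13 and 74.6 ± 23.9 CPM in L-Pha low and L-Pha high (log2 fold change 1.32, edgeR adjusted p = 0.263), and Il2rb, an interleukin-2 receptor chain (0.76, SE 0.351). Eomes, a T-box factor of killer cells, had 0.66 (SE 0.367).

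Genes of the interferon-gamma pathway mostly had lower point values, in 18 of 23 tested genes against 5674 of 11183 over all genes. Their median was -0.27, while Ifng itself had 0.24. Dropping L-Pha low 3 moved the median of the list to -0.44 and dropping L-Pha low 2 moved it to -0.16, and it was -0.14 with library totals alone and -0.16 with the T cell identity covariate. None passed the threshold. At an unadjusted p under 0.05 by edgeR 3 were lower and 0 higher, against 220 and 203 of 11183 over all genes. The 3 were the interferon-induced GTPase gene Igtp (-0.90, SE 0.309), the receptor chain gene Ifngr1 (-0.92, SE 0.335) and the feedback inhibitor gene Socs3 (-0.99, SE 0.391). Ifngr1 stood at 115 ± 53.2 CPM in L-Pha low and 60.9 ± 17.7 CPM in L-Pha high (SD, n = 3 each). Igtp was the only one of these 3 without overlap between the groups. Over all 11183 genes 1 passed the threshold, Tcf7, a transcription factor gene of naive and memory T cells, which fell (log2 fold change -2.86, edgeR adjusted p = 0.0347). The number of genes past the threshold was 0 without L-Pha low 1, L-Pha low 2 or any 1 of the L-Pha high libraries, and 8 without L-Pha low 3.

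By Pearson correlation of log2 CPM over the 6 libraries, the gene most like Prf1 among 5061 other genes with a mean of at least 20 CPM was Rgs16, a regulator of G protein signalling (r = 0.993). The closest was Aqr for Nkg7 (0.994), Fxyd5 for Fasl (0.995), Ercc3 for Ctsw (0.994), Ly6a for Srgn (0.991), Grina for Tnfsf10 (0.999), Uhrf1 for Ifng (0.987) and Dmrta2 for Lamp1 (0.981). These are the highest of many values over few libraries that share a T cell content, and are given as a description.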

How the data were processed

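Polyadenylated RNA of 6 libraries was sequenced from its 3' end (QuantSeq kit). Per the file headers, the deposited whole-number counts came from featureCounts 1.5.0-p3 with Ensembl 78 models of GRCm38, taking sense-strand reads, every alignment of a multi-mapping read and every overlapped gene. None of the 8 genes shares exons with another gene of the table on its strand. The submitters' processing notes also name HISAT2 2.1.0, cutadapt 1.7 and the human build hg19, whereas the count header names GRCm38. A deposited table of log2 values for 14293 symbols, whose making by the authors is not given in the sources used here, served 1 alternative. Symbols came from a reference table of gene names, for 97.3% of the 43629 gene identifiers, and promoter sequences from RefSeq.

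The filter was filterByExpr and the scaling TMM. Group was the only term of the robust quasi-likelihood fit in edgeR 4.0.16 (R 4.3.3), whose two-sided p-values were adjusted by Benjamini-Hochberg over 11183 genes, with a threshold of 0.05. Standard errors came from the F statistic. Ratios within a library used a pseudocount of 0.5 counts and an exact permutation test. The edgeR step was checked on simulated counts. Molecular identifiers are not mentioned in the labels, so the Clopper-Pearson intervals, which treat every count as separate, may be too narrow. The intervals of the log2 fold changes rest on the edgeR fit and include the spread between libraries. The 8 genes and the 17 gene lists were chosen with earlier results of these data known. Named genes are the 8, Cd8a and Cd3e, up to 4 of each list with the smallest p, the gene most like each of the 8 in pattern, and any gene past the threshold. Not every gene this rule names is reported here. Alternatives were other scaling (DESeq2 size factors, library totals), other filters, DESeq2 1.42.0, limma-voom and limma 3.58.1 on the log2 table, a block on the libraries' numbers, a T cell identity covariate, other references and pseudocounts, and leaving out each library. The covariate fit without each library was added after seeing the data.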

Additional observations from a re-analysis of the deposited data

How the results depend on the processing

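None of the 8 genes passed the threshold under 14 of the 15 alternatives fixed for them, and with the T cell identity covariate 1 did, Prf1 (log2 fold change 1.76, edgeR adjusted p = 0.00339). With that covariate and 1 library left out, 0 to 1 of the 8 passed. Leaving out 1 library, with or without the covariate, put Prf1 between 0.59 and 2.19; with it the values were 2.19, 1.49 and 1.6 without L-Pha low 1, 2 and 3 and 1.70, 1.88 and 1.74 without L-Pha high 1, 2 and 3. Directions turned for genes near 0. Library totals alone gave 0.080 for Tnfsf10 and 0.036 for Lamp1, limma-voom 0.020 for Nkg7, limma on the deposited log2 values 0.052 for Nkg7 and 0.035 for Tnfsf10, and the covariate 0.11 for Nkg7 and 0.029 for Tnfsf10. Leaving out 1 library gave -0.57 to 0.22 for Nkg7, -0.18 to 0.56 for Fasl, -0.27 to 0.48 for Srgn, -0.22 to 0.23 for Tnfsf10, -0.12 to 0.88 for Ifng and -0.28 to 0.092 for Lamp1. Prf1 and Ctsw kept their direction in all 15.

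Over all genes 1 passed, against 0 with library totals alone, limma-voom or the log2 table, 47 with no filter, 27 by DESeq2, 41 with the covariate and 0 to 8 without 1 library. With a replicate block 43 genes passed and none of the 8. Prf1 had 1.4 in this fit (edgeR unadjusted p = 0.000403, adjusted p = 0.082). Ctsw had -0.95 (edgeR unadjusted p = 0.0266, adjusted p = 0.546). The titles number the libraries of both groups from 1 to 3. The labels state no pairing, so the numbers served as a block only in this alternative. Deviations from the group means of same-numbered libraries correlated at 0.368, 0.0825 and 0.467, against -0.44 to 0.126 for libraries of different numbers. Each L-Pha high library correlated most with the L-Pha low library of its own number, whereas L-Pha low 2 correlated more with L-Pha high 1 (0.126). Whether same-numbered libraries came from the same pool was not tested. Against Cd8a 1 gene was without overlap, 2 with the T cell identity list as reference, 3 by same-numbered differences (the replicate block) and 1 to 3 without 1 library (3 without L-Pha low 1, 2 without L-Pha low 2, L-Pha high 2 or L-Pha high 3). Against Cd3e the count was 2, and 2 to 5 without 1 library (5 without L-Pha low 1, with Nkg7, Srgn and Ifng added), a setting in which groups of fewer libraries overlap less often by construction. Counts per library as low as 9 for Prf1 and 12 for Ctsw limit both genes in L-Pha low 3.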
